A study of Mus musculus with 6 samples.

Results

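The homeostatic chemokines *Cxcl12*, *Cxcl16* and *Cx3cl1* were examined with 4 signalling receptors (*Cxcr4*, *Cxcr6*, *Cx3cr1* and *Cxcr2*) and 3 atypical receptors (*Ackr3*, *Ackr1* and *Ackr2*) in liver sinusoidal endothelial cells (LSECs), the fenestrated endothelium of the liver. These 10 genes, of 23282 rows in each count file, were chosen by symbol with the genotype differences of the same libraries already in view, so their levels and differences are given as a description without a p-value. RNA was sequenced as 3 libraries of *Txnip-/-* LSECs and 3 of WT LSECs. The *Txnip-/-* mice carried a whole-body deletion of *Txnip* on C57BL/6J, and the WT mice were C57BL/6J without a deletion. No treatment is named for either group. Livers were digested with collagenase, nonparenchymal cells were enriched on a density gradient, and CD146-positive cells were taken with magnetic beads, a selection that other CD146-bearing cells can also pass. Whether the RNA came from freshly isolated or cultured cells, the age and sex of the mice, and whether each library was a separate mouse are not given in the sources used here. The p-values and SEs below therefore set the genotype difference against the spread between libraries, which may be technical.

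CXCL12 is a small secreted chemokine that binds CXCR4, a receptor that couples to inhibitory G proteins and guides and retains leukocytes and progenitors. ACKR3 also binds CXCL12 but signals through arrestins and removes the ligand from the surroundings. CXCL16 and CX3CL1 are made as membrane-anchored proteins that hold cells bearing CXCR6 or CX3CR1 and become soluble attractants when their stalks are cut. In the liver, CXCL16 on sinusoidal endothelium is known to serve patrolling lymphocytes that carry CXCR6.

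The coding sequences show the family to which each ligand belongs. In the following stretches, read 5′ to 3′ on the coding strand of GRCm38, capitals mark the first pair of cysteine codons, with 1 codon between them in both CXC ligands and 3 in the CX3C ligand.
Cxcl12: agctaccgaTGCcccTGCcggttcttc
Cxcl16: gctggaagtTGTtctTGTgatcgtacc
Cx3cl1: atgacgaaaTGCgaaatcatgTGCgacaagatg
The stretches are coding exon sequence at chr6:117171499-117171525 (plus strand), chr11:70459118-70459144 (minus strand) and chr8:94778042-94778074 (plus strand). Receptors of the signalling class carry an aspartate-arginine-tyrosine sequence at the end of the third membrane helix that takes part in coupling to G proteins. Capitals mark the codons at that place, shown for the CXCL12 receptors, for CXCR6 and for ACKR2, which scavenges inflammatory CC chemokines.
Cxcr4: ctgGACCGGTACctcgctattgtc
Ackr3: gtgGACCGCTATctctccatcacc
Cxcr6: gtgGATCGTTTCattgtagtggtc
Ackr2: ctgGACAAATACctggagattgtc
*Ackr3* holds the same 3 amino acids as *Cxcr4*, with 2 of the 3 codons spelled differently, while *Cxcr6* has a phenylalanine codon in the last place and *Ackr2* a lysine codon in the middle. These stretches lie at chr1:128589500-128589523 (minus), chr1:90214238-90214261 (plus), chr9:123810335-123810358 (plus) and chr9:121908975-121908998 (plus). In *Ackr1*, which binds many chemokines without G protein signalling, no such codon triplet was found in the searched part of its 334 codons. That part covered the place of the triplet in the other receptors, and the lysine and phenylalanine variants were also sought.

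Counts per library summed to 9147764 to 10193952 in *Txnip-/-* and 9699159 to 9951078 in WT LSECs, and 3 counts equal 0.286 to 0.335 CPM (counts scaled to library size with TMM factors). WT replicates 1 and 2 stood apart, with a chi-square per degree of freedom of 3.93 between them. Their values to WT replicate 3 were 37.0 and 40.2, and those to the *Txnip-/-* libraries 28.83 to 44.4. WT replicate 3 was nearer to *Txnip-/-* replicates 1, 2 and 3 (13.25, 13.95 and 17.12) than to the other WT libraries. Pairs of *Txnip-/-* libraries gave 8.317 to 9.567. Reads assigned to *Rn45s*, a precursor of ribosomal RNA, made up 10.03% of WT replicate 1 and 9.68% of WT replicate 2. Elsewhere the *Rn45s* share was 16.8% to 18.6%. *Txnip* itself had 269, 216 and 191 counts in *Txnip-/-* and 1901, 2019 and 1994 in WT libraries, a log2 fold change of -3.02 (SE 0.14; edgeR's quasi-likelihood test with Benjamini-Hochberg adjustment, adjusted p = 6.94e-10). All 8 LSEC markers and all 8 general endothelial markers were detected. The summed LSEC markers reached 2319 to 2853 CPM in *Txnip-/-* and 2634 to 4943 CPM in WT libraries, where WT replicate 3 held the lowest WT value. Most of this sum was *Lyve1*, a hyaluronan receptor, at 1520 CPM in WT replicate 3 against 3482 and 3780 CPM in WT replicates 1 and 2. Without *Lyve1*, left out after its values were seen, the sums were 820 to 877 CPM in *Txnip-/-* and 1114 to 1163 CPM in WT libraries. Of the 8 LSEC markers 5 (*Stab1*, *Stab2*, *Fcgr2b*, *Dnase1l3* and *Mrc1*) were below WT without overlap, and 2 were called lower in edgeR: *Stab1*, a scavenger receptor (log2 fold change -0.46, SE 0.09, adjusted p = 0.00984), and *Mrc1*, the mannose receptor (-0.76, SE 0.11, adjusted p = 0.000718). The genotypes overlapped for *Lyve1*, *Clec4g* (-0.14, SE 0.29) and *Oit3* (-0.28, SE 0.10). Macrophage markers, given below, were also lower in *Txnip-/-* libraries, and their part in the LSEC marker differences was not tested. The part of the LSEC marker differences in the chemokine levels was not tested.

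Of the 10 genes, 6 passed the filter on low counts (*Cxcl12*, *Cxcl16*, *Cxcr4*, *Cx3cr1*, *Ackr3* and *Ackr2*). A gene was called where, in the fit across all 11583 genes tested, the fold exceeded 1.3 with an adjusted p below 0.05. Of those 6 genes 1, *Cxcl12*, was called, and it was higher in *Txnip-/-* LSECs. Over all genes tested 1.44% were called, 0.509% as higher and 0.932% as lower in *Txnip-/-* LSECs. The libraries of the genotypes did not overlap for 4 of the 6 genes (*Cxcl12*, *Cxcl16*, *Cxcr4* and *Cx3cr1*), against 17.4% of all genes tested. Since the genes were chosen on this contrast and the filter keeps genes that are high in 1 genotype, nothing is read from these counts.

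*Cxcl12* lies at chr6:117168535-117181367 on the plus strand (GRCm38). It measured 281, 197 and 230 CPM in *Txnip-/-* replicates 1, 2 and 3, and 91.9, 95.4 and 108 CPM in the WT replicates. Each *Txnip-/-* library was above each WT library. The means were 236 ± 42.5 CPM and 98.3 ± 8.36 CPM (SD, n = 3 each), a 2.40-fold difference or 1.26 on the log2 scale (SE 0.12, 95% interval 1.01 to 1.52). The difference ranged from 1.12 without *Txnip-/-* replicate 1 to 1.38 without *Txnip-/-* replicate 2 over 16 other settings. Levels also varied more among the *Txnip-/-* libraries, with a coefficient of variation of 18.01% against 8.50% in WT. In bulk RNA, a different number of cells of a type and a different amount of RNA per cell cannot be told apart.

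Hepatic stellate cells, the pericytes of the sinusoid, are another known source of CXCL12 in liver, and the sum of their markers differed in the same direction. The summed 11 stellate cell and fibroblast markers reached 57.5 to 71.0 CPM in *Txnip-/-* and 30.8 to 34.5 CPM in WT libraries, without overlap. Of the 9 that passed the filter 2 were called, both higher. *Acta2*, the actin of contractile cells, differed by 1.47 on the log2 scale (means of 14.5 against 5.22 CPM). *Dcn*, a matrix proteoglycan, differed by 0.99 (30.6 against 15.4 CPM). *Dcn* and *Acta2* made up most of the sum in every library. The other markers that passed the filter were not called, with log2 differences from 0.04 (*Des*, SE 0.53) to 1.41 (*Col3a1*, SE 1.05). The whole marker list stayed below *Cxcl12* alone in every library, but marker levels do not show how much *Cxcl12* RNA such cells hold. The part of these cells in the *Cxcl12* difference was not tested.

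**Figure D1:**
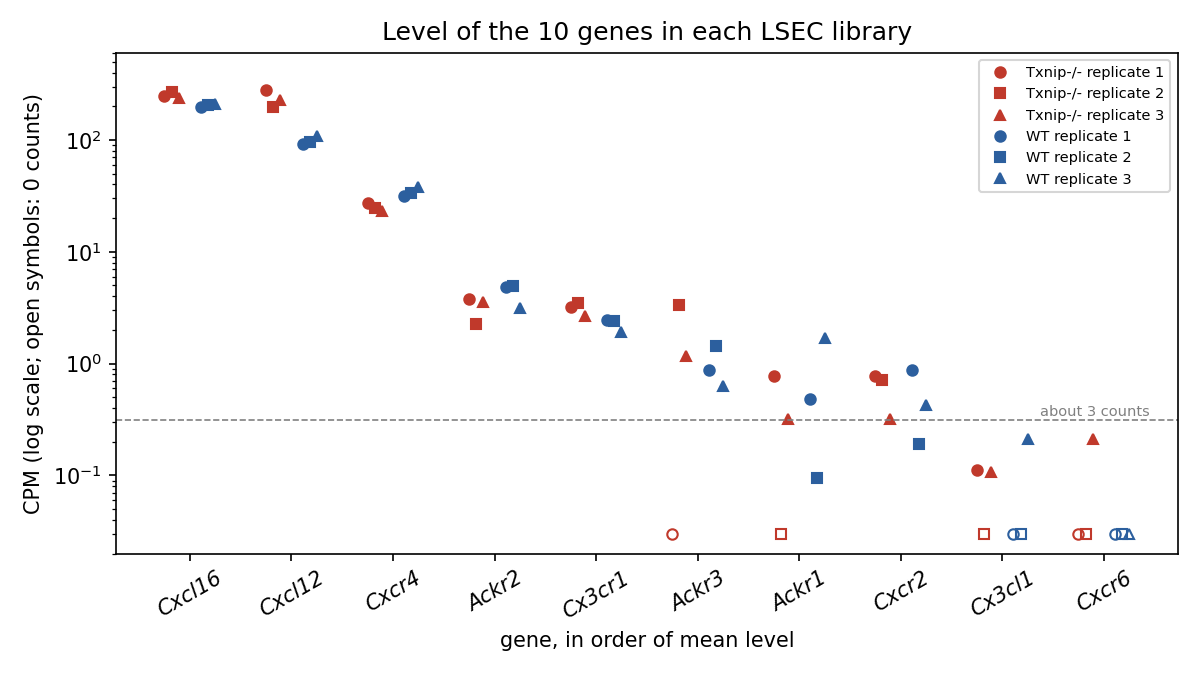
Levels of the chemokines and receptors in each library, in CPM on a log axis, with *Txnip-/-* and WT libraries as separate points. *Cxcl16* and *Cxcl12* sit above all receptors, and the WT *Cxcl12* points (91.9 to 108 CPM) lie below the *Txnip-/-* points (197 to 281 CPM).

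*Cxcl16*, on the minus strand at chr11:70453983-70459984, was the most abundant of the 10 genes in both genotypes. Its level was 247, 267 and 239 CPM in *Txnip-/-* and 195, 207 and 209 CPM in WT libraries. The groups did not overlap, but the gap was small beside that of *Cxcl12*. Means of 251 ± 14.6 and 204 ± 7.51 CPM (SD, n = 3 each) differed by 0.30 on the log2 scale (SE 0.09, 95% interval 0.11 to 0.48), a 1.23-fold difference that met neither the fold nor the adjusted p needed for a call. Without normalization factors the difference was 0.22.

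*Cx3cl1*, the third ligand, was at the limit of detection. It had 1, 0 and 1 counts in *Txnip-/-* and 0, 0 and 2 counts in WT libraries. Pooled over libraries this was 0.0711 CPM (exact Poisson interval 0.0086 to 0.257) and 0.0662 CPM (0.0080 to 0.239), so no difference was detectable at this depth. Intervals and floors cover counting error only.

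Among receptors, *Cxcr4* was the most abundant in 6 of 6 libraries, over all 24 chemokine receptor genes listed. It measured 27.6, 24.7 and 23.0 CPM in *Txnip-/-* and 31.7, 33.7 and 38.0 CPM in WT libraries. Every *Txnip-/-* value was below every WT value. Means of 25.1 ± 2.32 and 34.5 ± 3.19 CPM (SD, n = 3 each) differed by -0.46 on the log2 scale (SE 0.16, 95% interval -0.79 to -0.13), opposite in sign to the difference of its ligand *Cxcl12*. Over the other settings the value ran from -0.60, with a term for WT replicates 1 and 2, to -0.39 without WT replicate 3.

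*Cx3cr1*, the CX3CL1 receptor of monocytes and some macrophages, was scarce. It had 3.24, 3.47 and 2.67 CPM in *Txnip-/-* and 2.43, 2.38 and 1.90 CPM in WT libraries, from 18 to 34 counts each. The groups did not overlap, yet the interval of the difference held 0 (log2 difference 0.48, SE 0.53, 95% interval -0.64 to 1.59). Kupffer cell and macrophage markers differed the other way. All 13 Kupffer cell and macrophage markers were detected, summing to 306 to 340 CPM in *Txnip-/-* and 742 to 777 CPM in WT libraries, and 11 of the 12 that passed the filter were called lower. The 5 monocyte and dendritic cell markers summed to 0.51 to 6.41 CPM in *Txnip-/-* and 3.62 to 4.57 CPM in WT libraries, which overlapped. Of those 5 markers, 2 (*Ly6c2* and *Siglech*) were at 0 in every library. The part of macrophages or monocytes in the receptor levels was not tested.

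The other signalling receptors were near 0. *Cxcr6*, the lymphocyte receptor for CXCL16, had 0, 0 and 2 counts in *Txnip-/-* and 0 in each WT library, which allows up to 0.286 to 0.317 CPM per WT library. *Cxcr2*, the neutrophil receptor for CXC chemokines, had 7, 7 and 3 counts against 9, 2 and 4, and the groups overlapped. Markers of the cells that usually carry these receptors were largely missing: 8 of 13 T and NK cell markers and 5 of 9 matched neutrophil markers were at 0 in all 6 libraries. The T and NK cell sum (26.7 to 35.2 CPM in *Txnip-/-*, 42.7 to 46.5 CPM in WT) came almost wholly from *Zbtb16*, a transcription factor gene that was not called, and the neutrophil sum was 1.60 to 3.35 CPM against 0 to 1.71 CPM.

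Of the atypical receptors, *Ackr2* and *Ackr3* were not called, and *Ackr1* did not pass the filter on low counts. *Ackr2* had 3.80, 2.24 and 3.53 CPM in *Txnip-/-* and 4.87, 4.95 and 3.17 CPM in WT libraries, where WT replicate 3 lay among the *Txnip-/-* values. Its log2 difference of -0.44 (SE 0.46, 95% interval -1.42 to 0.54) was -0.62 without WT replicate 3 and 0.0051 with a term for WT replicates 1 and 2. *Ackr3* had 0, 33 and 11 counts in *Txnip-/-* and 9, 15 and 6 counts in WT libraries, so its highest and lowest values were in the same genotype. The *Ackr3* difference of 0.63 (SE 0.98, 95% interval -1.45 to 2.70) turned to -0.72 when *Txnip-/-* replicate 2 was left out. *Ackr1*, known from venules and red cells, had 7, 0 and 3 counts against 5, 1 and 16, with most WT counts in replicate 3.

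**Figure D2:**
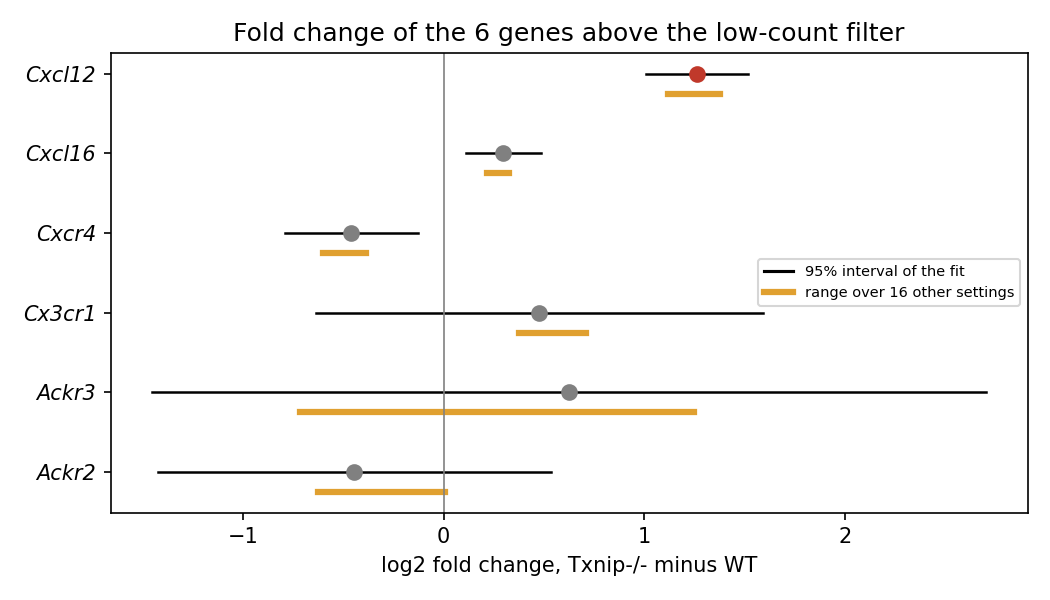
Log2 fold change (*Txnip-/-* minus WT) of the 6 genes that passed the filter, with 95% intervals (black), the range over 16 other settings (orange) and the called gene in red. The interval of *Cxcl12* runs from 1.01 to 1.52, and those of *Cx3cr1*, *Ackr3* and *Ackr2* hold 0.

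QuantSeq reads come from the 3′ end of a transcript and do not grow with its length, so CPM levels were compared between genes as transcripts. A 3′ end outside the counted annotation, which is not given in the sources used here, would be missed. Coding transcripts of *Cxcl12* have 3 different 3′ ends over 6299 bases in GENCODE M21, and those of *Cxcl16* have 1. In WT LSECs the order was *Cxcl16*, *Cxcl12*, *Cxcr4*, *Ackr2*, *Cx3cr1* and *Ackr3*, and no neighbours in that run overlapped. *Ackr3*, *Ackr1*, *Cxcr2*, *Cx3cl1* and *Cxcr6* followed with overlapping ranges. In *Txnip-/-* LSECs the ranges of *Cxcl16* and *Cxcl12* overlapped, *Cxcr4* stood apart from both, and all neighbours from *Ackr2* downwards overlapped.

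Ratios within a library do not depend on the scaling between libraries. *Cxcl12* per *Cxcl16* was 1.14, 0.738 and 0.964 in *Txnip-/-* and 0.470, 0.460 and 0.515 in WT libraries. *Cxcl12* per *Cxcr4* was 10.2, 7.98 and exactly 10 in *Txnip-/-* and 2.90, 2.83 and 2.84 in WT libraries. The ratio of the CXCL12 transcript to its receptor was thus 9.39 ± 1.23 against 2.85 ± 0.04 (SD, n = 3 each). *Cxcl16* per *Cxcr4* was 10.04 ± 0.98 against 5.94 ± 0.37. *Cxcl12* and *Cxcl16* were above and *Cxcr4* below all WT values in every *Txnip-/-* library. The ratios to *Cxcr4* therefore had to separate the genotypes, and they restate the differences already given.

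**Figure D3:**
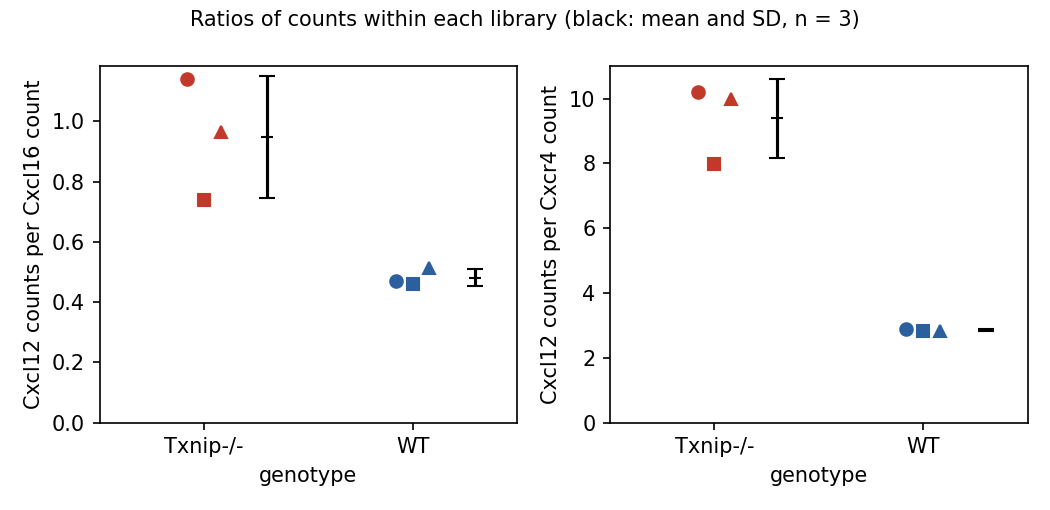
Counts of *Cxcl12* per count of *Cxcl16* (left) and of *Cxcr4* (right) in each library, with points for replicates and black bars for the mean and SD (n = 3). *Cxcl12* per *Cxcr4* spans 7.98 to 10.2 in *Txnip-/-* and 2.83 to 2.90 in WT libraries.

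Over all 24 receptor genes (18 signalling and 6 atypical, among them *Gpr182*), 15 had at least 3 counts in some library and 6 were at 0 in all (*Cxcr1*, *Ccr2*, *Ccr3*, *Ccr6*, *Ccr7* and *Ccr8*). *Cxcr4* made up 43.3% to 52.4% of the summed receptor CPM in *Txnip-/-* and 45.8% to 54.6% in WT libraries. The atypical share was 30.6%, 31.3% and 43.7% in *Txnip-/-* and 44.7%, 39.3% and 30.4% in WT libraries, which overlapped.

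Genes that work with these chemokines were read from 6 lists of 85 genes, none of them among the 10, of which 66 were tested. In the edgeR fit 0 were called higher and 2 lower (3.03%), against 1.44% of all genes tested called, 0.932% as lower. In the same fit 11 (16.7%) had an unadjusted p under 0.05, against 1336 (11.5%) of all genes tested. The genotypes did not overlap for 13 (19.7%), against 17.4% of all genes tested. The median log2 difference was -0.02, against a median of -2.75e-05 over all genes. With DESeq2 3 were called, *Arrb1*, an arrestin that ends receptor signals, being the added gene (edgeR adjusted p = 0.0549, log2 difference -0.55, SE 0.14).

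*Timp3*, an inhibitor of the metalloproteinases that cut chemokines from the cell surface, measured 358, 357 and 352 CPM in *Txnip-/-* and 513, 503 and 544 CPM in WT libraries. All *Txnip-/-* values were below all WT values. It fell by 0.55 on the log2 scale (SE 0.08; edgeR's quasi-likelihood test with Benjamini-Hochberg adjustment, adjusted p = 0.000682), and was called under every setting tried. Its 3′ end overlaps *Syn3* on the other strand, and whether counting used strand is not given in the sources used here. The other 9 tested genes of the shedding and cleavage list did not pass.

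*Rgs1*, which shortens G protein signals from chemokine receptors, measured 9.49, 9.38 and 8.45 CPM in *Txnip-/-* and 17.1, 17.1 and 27.6 CPM in WT libraries. WT replicate 3 was the highest, and the groups did not overlap. It fell by 1.17 on the log2 scale (SE 0.24; edgeR, adjusted p = 0.0155), but lost the call when *Txnip-/-* replicate 1, 2 or 3 was left out (adjusted p = 0.0690, 0.0688 and 0.0757), with log2 differences of -1.20, -1.20 and -1.13. *Rgs1* is also a gene of leukocytes, and the macrophage markers given above were lower in the same libraries; their part was not tested. The other 25 tested genes of the signalling and desensitisation list did not pass, with *Gnai2*, the main inhibitory G protein subunit here, at 1139 ± 26.7 and 1139 ± 91.0 CPM.

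No gene was called among the 4 other receptors tested, 4 other ligands, 16 genes of heparan sulfate, which holds chemokines on the endothelial surface, and 6 of the hypoxia pathway, a known regulator of CXCL12 and CXCR4. Their most abundant members were *Gpr182*, an atypical receptor of sinusoidal endothelium (-0.83, SE 0.28, adjusted p = 0.205), *Adm* (-0.25, SE 0.12, adjusted p = 0.459), *Hspg2* (-0.11, SE 0.12, adjusted p = 0.798) and *Hif1a* (0.30, SE 0.10, adjusted p = 0.189), as log2 differences in edgeR. *Adm* was called without WT replicate 3.

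**Figure D4:**
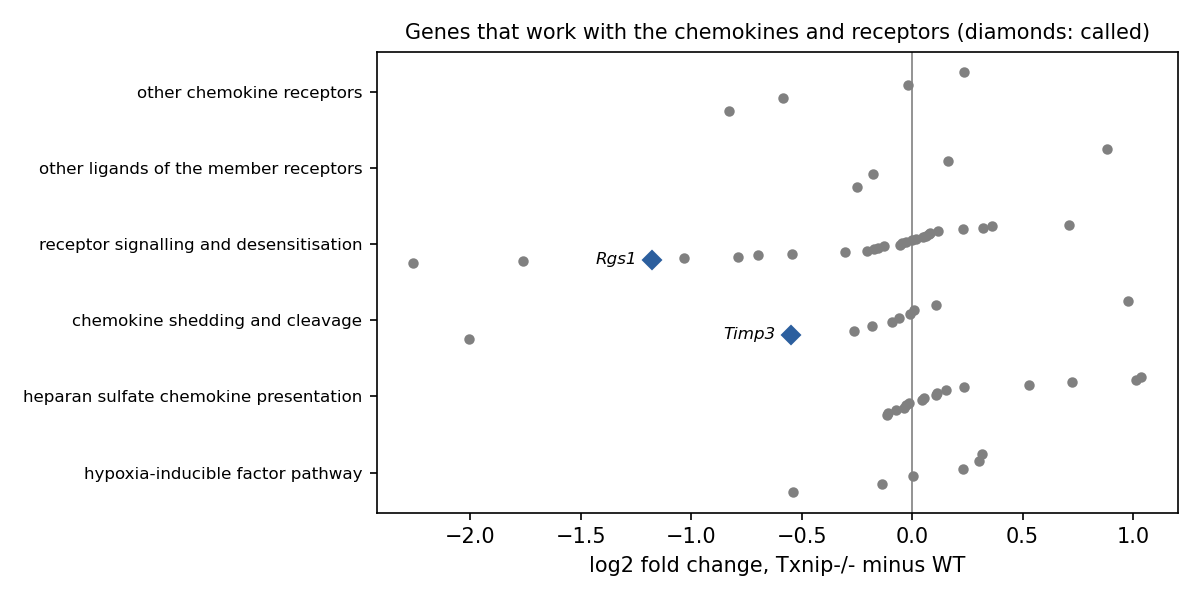
Log2 fold change (*Txnip-/-* minus WT) of the tested genes of each chemokine pathway list, with genes that were called marked and named. *Timp3* (-0.55) and *Rgs1* (-1.17) are the called genes, both lower in *Txnip-/-* LSECs.

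The genes with the most similar profile were sought by Pearson's r of log2 CPM over the 6 libraries, among 8025 tested genes with a mean of at least 10 CPM. With 6 points that share 2 genotypes and so many candidates, high values are a description only. Among those nearest to *Cxcl12* was *Psmb4* (r = 0.992). Nearest to *Cxcl16* were *S100a6* (0.989), *Pwp2* (0.984) and *Cldnd1* (0.980), and nearest to *Cxcr4* were *Angpt2* (0.994), *Itprip* (0.993) and *Nt5dc2* (0.992). Nearest to *Cx3cr1* were *Rbm17* (0.982) and the rows *Gm18853* and *Gm17757* (0.980 each), which held identical values in every library. *Ada* (0.993), *Rpl18* (0.983) and *Tmem50b* (0.980) were nearest to *Ackr3*, and *Usp42* (0.997), *Tmed9* (0.986) and *Tm2d3* (0.983) to *Ackr2*.

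The promoter of *Cxcl12*, the called gene, is given for its base composition. The 250 bases before its RefSeq start (chr6:117168285-117168534, plus strand, GRCm38.p6) held 64.4% G and C, against a median of 52.4% over 32851 promoters. Capitals mark GC boxes (GGGCGG on either strand), of which there were 5, an adjoining pair sharing 1 base.
Cxcl12 promoter: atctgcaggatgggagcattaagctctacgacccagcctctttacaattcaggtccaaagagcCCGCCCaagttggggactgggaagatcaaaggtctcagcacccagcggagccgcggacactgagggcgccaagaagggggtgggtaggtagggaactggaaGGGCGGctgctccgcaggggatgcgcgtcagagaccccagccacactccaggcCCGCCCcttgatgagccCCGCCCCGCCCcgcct
A GC box was present in 32.7% of all promoters. The letters ACGTG (16.6% of promoters), TATAAA (12.4%) and TGANTCA (6.75%) were not in this window on either strand. Of the 10 genes 9 had a promoter in the table, and *Cxcr4* held 3 GC boxes, *Cx3cl1* and *Ackr3* 1 each.

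**Figure D5:**
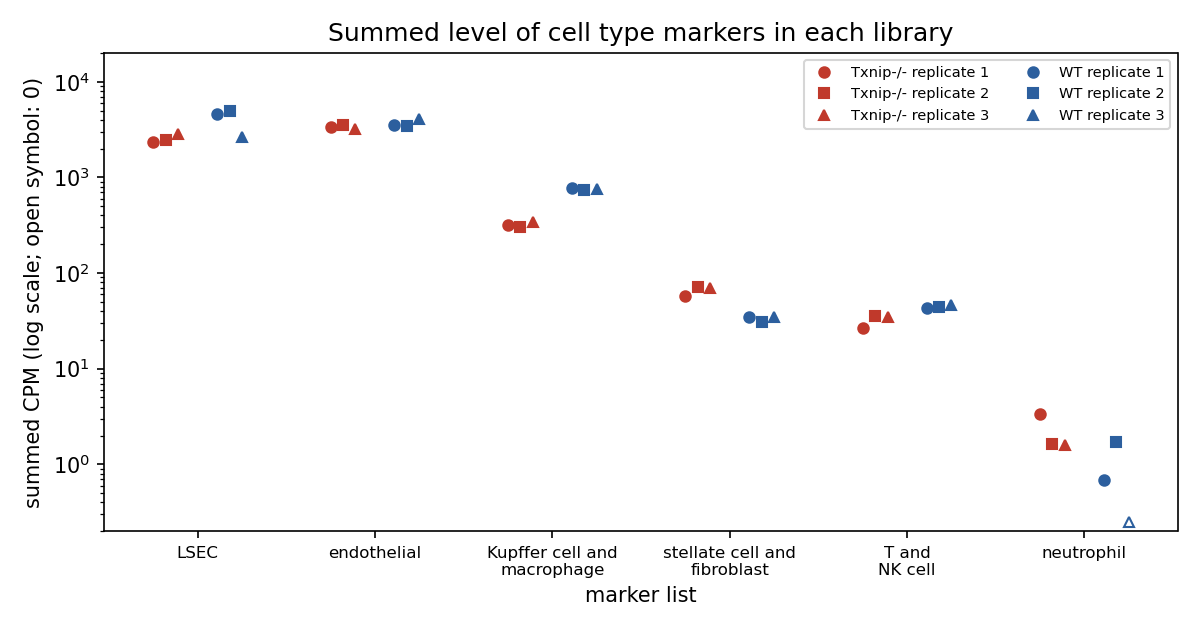
Summed CPM of each cell type marker list in every library, on a log axis. Kupffer cell and macrophage markers (306 to 340 CPM in *Txnip-/-*, 742 to 777 CPM in WT) and stellate cell and fibroblast markers (57.5 to 71.0 against 30.8 to 34.5 CPM) separate the genotypes in opposite directions.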

How the data were processed

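LSECs of 3 *Txnip-/-* and 3 WT libraries were measured by QuantSeq 3′ sequencing (single-end reads). The deposited values are raw counts per gene symbol: the authors used Bowtie2 for alignment and bedtools for counting, keeping reads with several alignments as well as unique ones. The submitters' processing notes name mm10. Tool versions, annotation and use of strand are not given in the sources used here. Counting multiple alignments can credit reads to near-identical copies.

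In R 4.3.3, edgeR 4.0.16 (filterByExpr, TMM, glmQLFit, glmQLFTest) was fitted to all 11583 genes that passed the filter, with genotype as the only term and Benjamini-Hochberg adjustment. The SE of a log2 difference is its size divided by the square root of F. The scripts were tested on simulated data. Totals per library were 9147764 to 10193952 counts, with 44 rows repeating a symbol. Genes and lists were chosen with earlier results of these data known. Named genes were the 10 chemokine genes, each called or most abundant gene of a pathway list, *Txnip*, and the nearest profiles, 3 for each gene that passed the filter, some of which are not reported here. Alternatives were DESeq2 1.42.0, limma-trend (limma 3.58.1), other factors and filters, a replicate block, a term for WT replicates 1 and 2, *Rn45s* left out, no fold threshold, and each library left out. Positions are from GENCODE M21 on GRCm38 and promoters from RefSeq on GRCm38.p6.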

Additional observations from a re-analysis of the deposited data

How the results depend on the processing

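*Cxcl12* was called under all 17 other settings, and no other chemokine gene of the 10 was called under any. *Cx3cl1*, *Cxcr6*, *Cxcr2* and *Ackr1* entered the fit only with DESeq2 or without a filter on low counts, and could not be called elsewhere. All settings use the same libraries, on whose contrast the genes were chosen, so these calls describe the processing only. Over all genes, 167 were called (59 higher, 108 lower). Without a filter on low counts there were 301 (106 higher, 195 lower) and 4 pathway genes. Without normalization factors 35 of 180 calls were higher (19.4% against 35.3%), and a term for WT replicates 1 and 2 gave 96 higher. Leaving out 1 library gave 89 to 301 calls (29 to 110 higher, 60 to 191 lower) and 1 to 3 pathway genes, with 301 calls without WT replicate 3 and 89 without WT replicate 1. With the replicate block 108 genes were called (40 higher, 68 lower). Libraries sharing a number had deviations from the genotype mean that correlated at -0.030, 0.017 and -0.047, so the numbers were not taken to pair the libraries. The causes were not tested. At 3 libraries per genotype and under 35 counts per library, differences of *Cx3cr1*, *Ackr3* and the receptors below them could not be resolved.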
